A study of Homo sapiens with 2 samples.

Results

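The genes described here encode kinesins, centromere proteins and regulators of mitosis, and were chosen by symbol. They are the genes whose platform symbol begins with KIF and a digit or with CENP and a letter, plus 20 named mitotic regulators. A named probe set was available for 74 such genes of 14884 named genes. These were 39 kinesins, 17 genes with a CENP symbol, 17 of the 20 regulators and KIF9-AS1, a non-coding antisense RNA that the symbol pattern also caught. The regulators TPX2, UBE2C and DLGAP5 had no named probe set here, nor had the mitotic CENP genes CENPE and CENPF, and they were not analysed here. The rule uses symbols and no measured value, but it was written with earlier results of these data known.

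The cells were AsPC-1, a human cell line established from a pancreatic adenocarcinoma, grown in 3 dimensions under a layer of collagen gel. The uncompressed group was 1 culture left without load for 24 h, and the compressed group was 1 culture held at 2.9 mmHg for 24 h. Both groups therefore shared the line, the gel and the time, and each was read on 1 GeneChip Human Gene 2.0 ST array. Values are log2 levels per probe set, and a difference is compressed minus uncompressed on that log2 scale. With 1 array per group there is no replicate check and no test, so differences are described by size, and a gene called higher or lower is so on this pair of arrays. Genes were kept where their mean level reached the median over named genes, 4.79. This left 7442 genes and 60 of the 74 members. Of 8 named ductal epithelial markers 6 were kept (KRT8, KRT18, KRT19, EPCAM, CEACAM6 and SOX9). None of 3 named endothelial markers was kept, while LUM and THY1 of 3 named fibroblast markers and CD68 and LYZ of 3 named leukocyte markers were. The fibroblast markers spanned 1.79 to 9.75 in uncompressed and 1.82 to 9.39 in compressed cells, and the leukocyte markers 3.65 to 9.04 and 3.71 to 9.26. Their part in the results was not tested.

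Kinesins are motor proteins that walk along, slide or take apart microtubules. One set of them builds and moves the mitotic spindle and the cleavage furrow, and its genes are transcribed mainly in late S, G2 and M phase. Another set carries vesicles, organelles and ciliary cargo at all stages of the cell cycle, including in cells that do not divide. Centromere proteins mark the centromere and form the base of the kinetochore, on which spindle microtubules pull. The cyclin-dependent kinase CDK1 drives entry into mitosis, and many genes with roles in G2 and M share a promoter element called the cell cycle genes homology region (CHR), often placed next to a CCAAT box.

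The stretch of 100 bases before the annotated start is shown for 5 mitotic genes and 3 transport kinesin genes, so that genes of both kinds can be compared for these elements. The genes shown were chosen after their windows had been searched. Sequences are from RefSeq (GRCh38.p14) and read 5′ to 3′ on the strand of the gene. Capitals mark TTTGAA, the core hexamer of the CHR, and CCAAT, each on either strand, so that the opposite strand appears as TTCAAA and ATTGG. Matches were counted even where they shared bases with another match.
KIF11, chr10:92593030-92593129, plus strand: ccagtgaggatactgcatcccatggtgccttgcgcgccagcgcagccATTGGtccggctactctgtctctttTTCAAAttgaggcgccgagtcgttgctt
KIF4A, chrX:70290004-70290103, plus strand: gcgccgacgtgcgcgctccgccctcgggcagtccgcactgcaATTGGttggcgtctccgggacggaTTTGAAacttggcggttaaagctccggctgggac
KIF23, chr15:69414249-69414348, plus strand: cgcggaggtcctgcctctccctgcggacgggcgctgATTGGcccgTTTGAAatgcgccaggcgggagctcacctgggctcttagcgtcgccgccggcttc
PLK1, chr16:23678789-23678888, plus strand: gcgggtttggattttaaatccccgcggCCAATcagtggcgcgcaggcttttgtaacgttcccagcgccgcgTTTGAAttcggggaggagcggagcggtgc
CCNB2, chr15:59105046-59105145, plus strand: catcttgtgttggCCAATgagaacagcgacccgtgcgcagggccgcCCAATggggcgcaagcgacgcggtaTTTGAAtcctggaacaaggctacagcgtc
KIF13A, chr6:17987636-17987735, minus strand: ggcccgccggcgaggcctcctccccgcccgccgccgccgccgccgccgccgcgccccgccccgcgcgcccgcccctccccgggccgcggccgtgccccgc
KIF3C, chr2:25982498-25982597, minus strand: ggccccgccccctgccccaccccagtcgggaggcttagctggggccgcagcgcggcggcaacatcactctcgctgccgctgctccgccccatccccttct
KIF5B, chr10:32056426-32056525, minus strand: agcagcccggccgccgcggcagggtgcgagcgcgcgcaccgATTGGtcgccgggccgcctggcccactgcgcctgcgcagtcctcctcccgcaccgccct

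In KIF11 the hexamer began 28 bases before the start, in KIF4A 34, in KIF23 55, and in PLK1 and CCNB2 29. Each of these 5 genes also had a CCAAT box farther upstream. KIF13A and KIF3C held neither motif in the stretch shown. KIF5B held 1 CCAAT box there, and its hexamer began 140 bases before the start, outside the stretch.

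Over the whole window of 300 bases (250 before and 50 after the start), sequences were found for 62 of the 74 members. TTTGAA on either strand was present for 9 of 12 mitotic kinesins and for 1 of 16 transport and ciliary kinesins with a sequence, that of KIF5B. The share was 13.4% among 5884 kept genes with a sequence, 18.2% among all 27305 genes of the promoter table and 15.2% of its 35116 windows. Of the named regulators 11 of 15 had the hexamer, and of the centromere protein genes 4 of 13. A CCAAT box was present for 10 of 12 mitotic kinesins and 14 of 15 regulators. It was present for 9 of 13 centromere protein genes and 5 of 16 transport kinesins. Its share was 42.4% among the kept genes, 39.7% among all genes of the promoter table and 34.6% of single windows. Both motifs lay in 1 window for 8 of 12 mitotic kinesins and 10 of 15 regulators, against 5.86% of the kept genes. The mitotic kinesins without the hexamer were KIF20A, KIF22 and KIF2C. In KIF14, KIF18B, KIF20B and KIF4B it lay only at or after the start, and the other 5 mitotic kinesins had it within 100 bases before the start. Median GC content was 62.0% for the mitotic and 69.7% for the transport windows, against 65.3% for kept genes, and its part in these shares was not tested. A match of letters describes the sequence and is not a binding site.

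**Figure D1:**
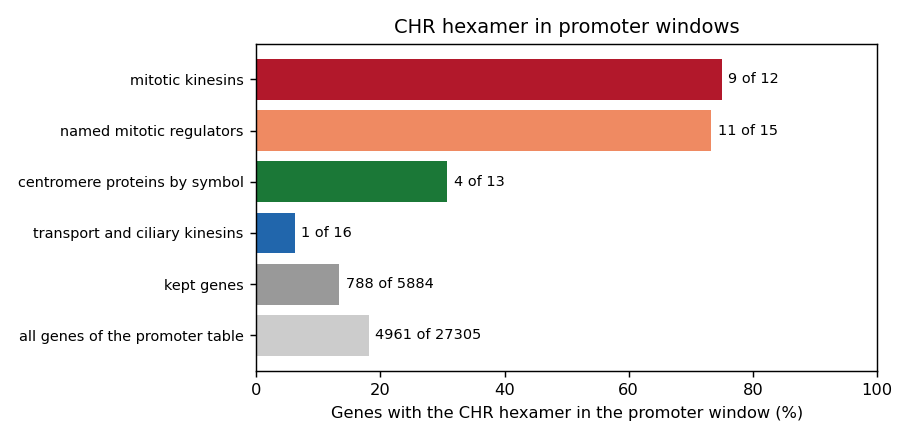
Bars give the percentage of genes whose promoter window holds the CHR hexamer on either strand, with the count of genes beside each bar, and start at 0. The mitotic kinesins (9 of 12) and the named regulators (11 of 15) stand above the kept genes (788 of 5884), and the transport and ciliary kinesins (1 of 16) do not.

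The comparison of compressed with uncompressed cells asks how the transcripts of pancreatic cancer cells differ under compression. The mitotic kinesins were lower in the compressed culture as a group (median difference -0.41), most regulators of mitosis were lower as well (median -0.26), and the transport kinesins were not shifted in one direction. Of the 60 kept members 46 had a negative difference, 13 a positive one, and KIF13B read the same on both arrays. Over all 7442 kept genes, 46.8% had a negative difference and 50.8% a positive one. The median difference was -0.20 over the kept members and 0.01 over all kept genes, whose middle 50% lay between -0.15 and 0.18.

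The sizes were small. Counted first by a log2 difference of 0.32 or more in size, 20 kept members were lower, against 8.28% of all kept genes, and 4 were higher, against 13.5%. At least 1.5-fold lower (0.58 on the log2 scale) were 2 members, TOP2A and KIF11, against 1.12% of all kept genes, and 0 were 1.5-fold higher, against 3.95%. At 2-fold lower there were 0 members, against 0.0806% of the kept genes. KIF15, at 1.47-fold lower, was the nearest below the 1.5-fold size. In a culture, fewer cells in G2 and M and less of each transcript per dividing cell cannot be told apart.

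**Figure D2:**
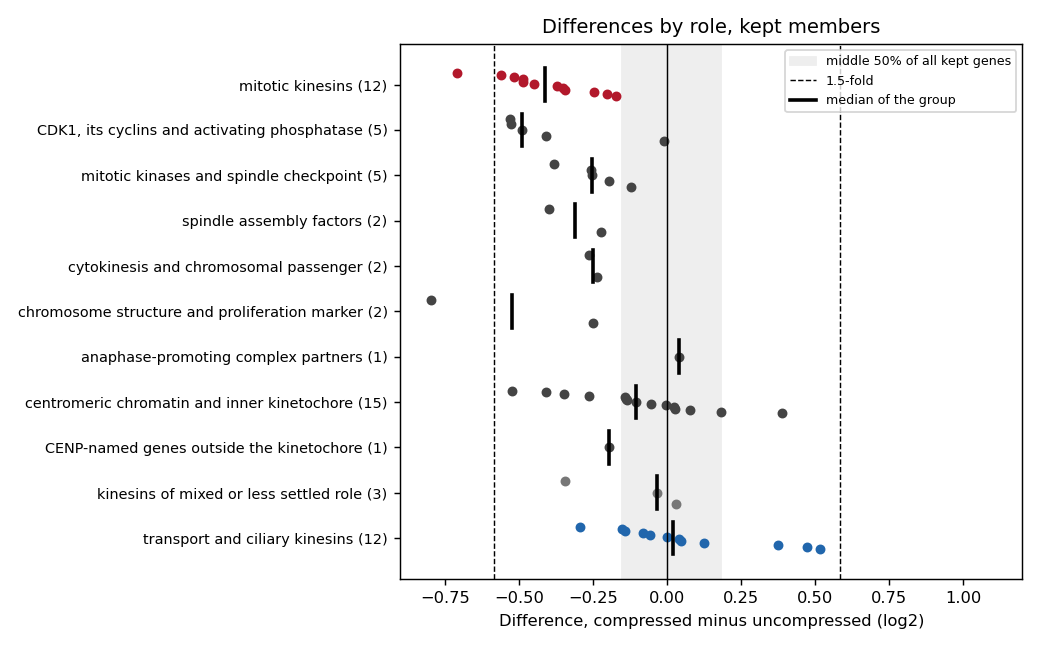
Each point is 1 kept member, plotted by its difference in log2 units, with the number of kept members of each role in brackets, the median of the role as a black bar and the middle 50% of all kept genes shaded. All 12 mitotic kinesins lie left of the shaded band, whose edges are -0.15 and 0.18, and TOP2A and KIF11 lie beyond the dashed 1.5-fold line.

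By role, 12 kinesins were taken as mitotic, 22 as transport and ciliary, and 5, of which 3 were kept, as of mixed or less settled role. All 12 mitotic kinesins were kept, and all 12 had a negative difference, with a median of -0.41 and a range from -0.71 to -0.17. Of these, 9 were lower by at least 0.32 and 1 by at least 1.5-fold. Among the 3942 kept genes in the level range of the mitotic kinesins (mean levels from 5.99 to 8.95), 46.2% had a negative difference, 6.95% were lower by at least 0.32, 0.964% by at least 1.5-fold, and the median was 0.02. KIF2A, of the mixed set but also found at spindle poles, differed by -0.03 at a mean level of 8.08. Counted as mitotic, it would extend the range of that set to -0.03.

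The motors that push the spindle poles apart differed most. KIF11, the tetrameric motor that slides antiparallel spindle microtubules, read 9.31 on the uncompressed and 8.60 on the compressed array, 1.63-fold lower. In the order of all 7442 kept genes from the most negative difference upward it ranked 36. KIF15, which shares the work of keeping the spindle bipolar, read 6.28 and 5.71, 1.47-fold lower. These were the pair with the largest negative differences among the kinesins that were kept.

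KIF4A, a chromokinesin that binds condensed chromosomes and the midzone, read 8.32 and 7.80, 1.43-fold lower. KIF4B, an intronless gene with a coding sequence close to that of KIF4A, read 7.45 and 7.11, 1.27-fold lower, and probes may not separate the pair. KIF22, another chromokinesin, read 8.38 and 8.13, 1.18-fold lower. Without KIF4B the median of the mitotic kinesins was -0.45.

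The motors of the central spindle and cleavage furrow lay close together. KIF20A, which brings the chromosomal passenger complex to the midzone, read 7.98 and 7.49, 1.40-fold lower. KIF20B read 8.91 and 8.43, also 1.40-fold lower. KIF23, a subunit of centralspindlin, read 8.57 and 8.12, 1.37-fold lower. These 3 genes form the kinesin-6 family, and their differences spanned only -0.49 to -0.45.

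The kinesins that shorten microtubules had smaller differences. KIF18A, which damps the oscillation of chromosomes at the plate, read 7.74 and 7.37, 1.29-fold lower, and its paralog KIF18B read 6.71 and 6.51, 1.15-fold lower. KIF2C, the centromeric depolymerase MCAK, read 7.56 and 7.21, 1.28-fold lower. KIF14, needed for cytokinesis, read 7.67 and 7.50, 1.13-fold lower, the smallest difference of the mitotic kinesins.

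**Figure D3:**
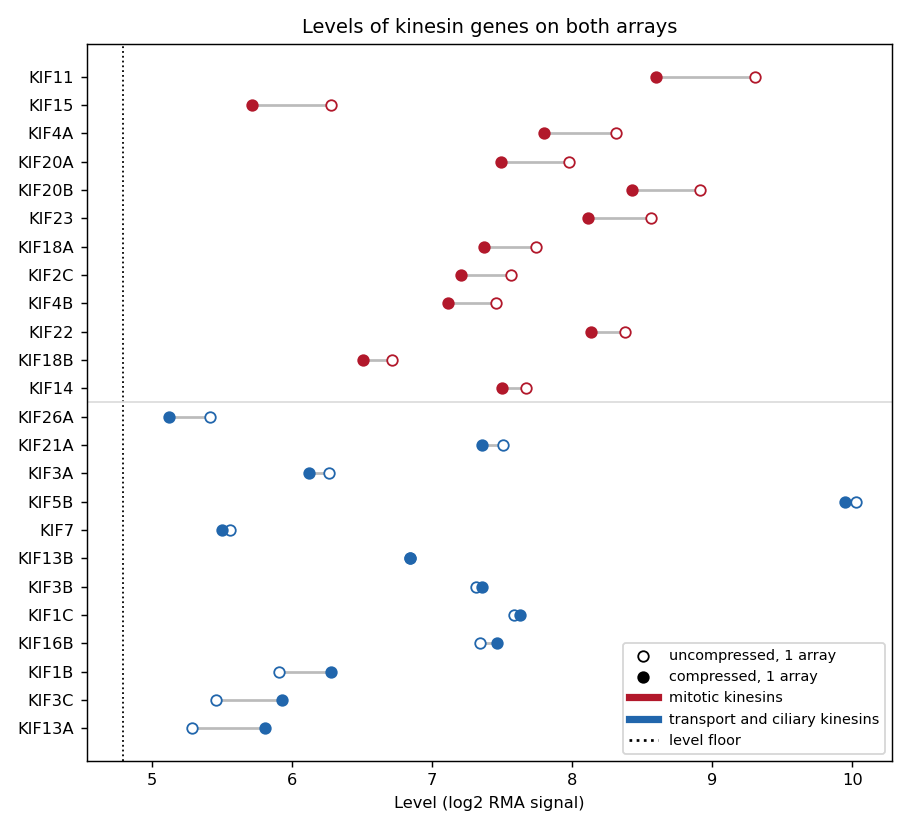
Each row is 1 kept kinesin gene, with its log2 level on the uncompressed array (open circle) and on the compressed array (filled circle), mitotic kinesins above and transport and ciliary kinesins under the grey line. The filled circle lies left of the open one for all 12 mitotic kinesins and for 5 of the 12 transport and ciliary kinesins.

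Of the 22 transport and ciliary kinesins with a named probe set, 12 were kept. Among these, 5 had a negative and 6 a positive difference, against 46.8% and 50.8% of all kept genes. The 12 had a median of 0.02 and a range from -0.29 to 0.52. By at least 0.32 none was lower and 3 were higher, against 8.28% and 13.5% of all kept genes. The median of all 22 was -0.03, and that of the kept ones was -0.02 after repeated quantile normalization, so it has no settled sign. KIF26A, an atypical kinesin that signals rather than carries cargo, read 5.41 and 5.12, 1.23-fold lower, and was the 1 kept transport or ciliary kinesin whose difference fell inside the range of the mitotic ones. The name of the set does not describe this gene well.

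The 3 that were higher carry vesicles or membrane cargo. KIF13A, which moves endosomes and melanosome precursors, read 5.29 and 5.80, 1.43-fold higher. KIF3C, a partner of KIF3A in heterodimeric kinesin, read 5.46 and 5.93, 1.39-fold higher. KIF1B, a carrier of mitochondria and synaptic vesicle precursors, read 5.91 and 6.28, 1.30-fold higher by its brighter probe set. Its other probe set read 4.76 and 4.44, a difference of -0.32, and the mean of both was 0.03, so KIF1B has no settled direction.

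The conventional kinesin heavy chain KIF5B read 10.03 and 9.95, a difference of -0.08. The ciliary motor subunits KIF3A and KIF3B differed by -0.14 and 0.04, and KIF7, the Hedgehog pathway kinesin of the ciliary tip, by -0.06. KIF1C and KIF16B, which carry secretory and endosomal vesicles, differed by 0.05 and 0.12. KIF21A differed by -0.15, and KIF13B read 6.84 on both arrays. Exactly equal values were found for 182 of the kept genes.

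The contrast between the sets was also present at matched levels, in a range chosen after the data were seen. With mean levels from 5.99 to 8.95, all 12 mitotic kinesins and 7 transport kinesins remained. The median of those 7 was 0.04, with a range from -0.15 for KIF21A to 0.37 for KIF1B, against -0.41 for the mitotic set. The lowest of the 7 lay only just above the highest of the 12, KIF14 at -0.17. This level range left out KIF26A (-0.29, mean level 5.27), whose difference falls among the mitotic ones. KIF2A (-0.03, mean level 8.08) lay within the level range but belonged to neither set. Every mitotic kinesin kept a negative difference after loess correction and after repeated quantile normalization. The level filters and the mean of probe sets cannot change these differences, because each of these genes has a single probe set. Median centring moves them by 0.01. Under all these alternatives the median of the set ran from -0.42 to -0.37.

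**Figure D4:**
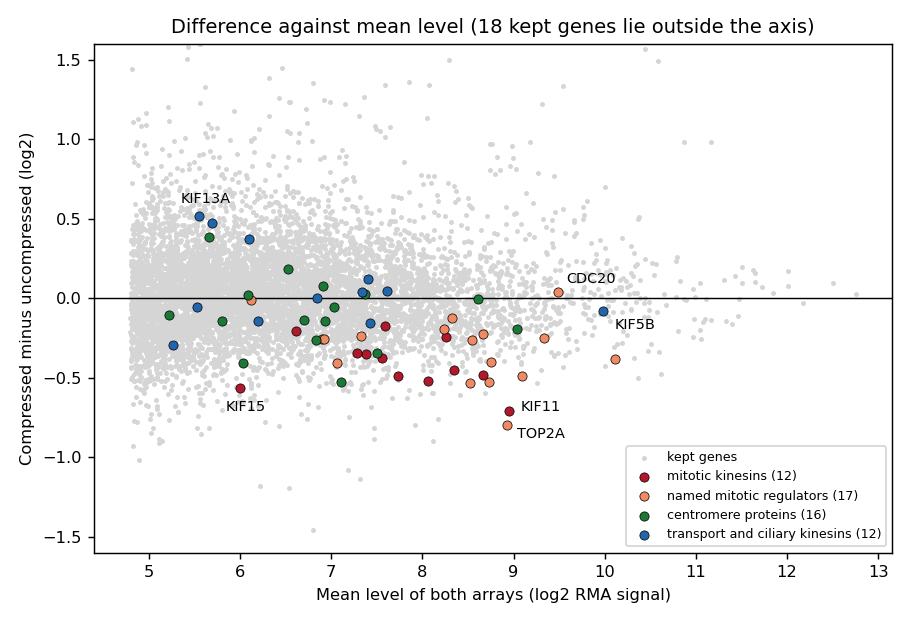
Points are kept genes, plotted by mean log2 level of both arrays and by difference in log2 units, with all kept genes in grey and the member groups in colour. At mean levels from 5.99 to 8.95 the mitotic kinesins lie at or below -0.17, while the transport and ciliary kinesins of that range lie between -0.15 and 0.37.

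Related motors of 1 family are given side by side. In the kinesin-3 family the mitotic member KIF14 differed by -0.17, while the 5 kept cargo carriers KIF1B, KIF1C, KIF13A, KIF13B and KIF16B ran from 0.00 to 0.52. In the kinesin-4 family KIF4A differed by -0.52 and KIF4B by -0.34, against -0.15 for KIF21A and -0.06 for KIF7. In the kinesin-13 family KIF2C differed by -0.35. Its paralog KIF2A, a depolymerase at spindle poles and in neurites, differed by -0.03 (8.10 and 8.06), and KIF24, which acts at the centriole, by 0.03. KIF2B read 5.06 and 4.72, a difference of -0.34, but its compressed level lay under the floor, so the size is uncertain. All 4 kept kinesin-4 genes were thus negative, and in the kinesin-13 family KIF2B lay close to KIF2C. These are differences of single genes on 1 array per group and were not tested.

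The regulators of mitosis were all kept where they had a named probe set. Of 17 genes, 16 read lower in the compressed culture, 7 of them by at least 0.32 and 1 by 1.5-fold, with a median difference of -0.26. Of all kept genes, 46.8% read lower, 8.28% by at least 0.32 and 1.12% by 1.5-fold. Under the alternatives that median ran from -0.30 to -0.26.

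CDK1 and its cyclins were lower by similar amounts. CDK1 read 8.79 on the uncompressed and 8.26 on the compressed array, 1.44-fold lower. CCNB1, the main cyclin partner of CDK1 in mitosis, read 8.997 and 8.470, also 1.44-fold lower. CCNA2, the cyclin of S and G2 phase, read 9.34 and 8.85, 1.40-fold lower, and CCNB2 read 7.26 and 6.85, 1.33-fold lower. CDC25C, the phosphatase that activates CDK1, read 6.13 and 6.12, a difference of -0.0098.

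The mitotic kinases had smaller differences than the cyclins. PLK1, polo-like kinase, read 10.30 and 9.92, 1.30-fold lower. AURKA, which acts at spindle poles, differed by -0.26, and AURKB, the kinase of the chromosomal passenger complex, by -0.19. The spindle checkpoint genes BUB1B and BUB1 differed by -0.25 and -0.12.

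TOP2A, topoisomerase II alpha, which untangles sister chromatids, read 9.32 and 8.52, 1.74-fold lower, and ranked 20 from the most negative difference of the kept genes. MKI67, the proliferation marker that coats mitotic chromosomes, read 9.46 and 9.21, 1.19-fold lower. The spindle assembly genes NUSAP1 and HMMR read 8.95 and 8.55, and 8.78 and 8.55, which is 1.32-fold and 1.17-fold lower. The cytokinesis activator ECT2 differed by -0.26, and BIRC5, which encodes the passenger subunit survivin, by -0.24. CDC20, the activator of the anaphase-promoting complex, was the 1 regulator with a positive difference, 0.04 (9.46 and 9.50), and was at -0.0019 after repeated quantile normalization. TOP2A and MKI67, both genes of chromosome structure in mitosis, thus differed by unequal amounts.

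The centromere proteins lay on both sides of 0. Of 16 kept genes 11 had a negative and 5 a positive difference, against 46.8% and 50.8% of all kept genes. The median of the 16 was -0.12 and ran from -0.16 to -0.10 under the alternatives. By at least 0.32 on the log2 scale 3 were lower and 1 was higher, against 8.28% and 13.5% of all kept genes.

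CENPH, a subunit of the inner kinetochore, read 7.37 and 6.85, 1.44-fold lower, and CENPK, its direct partner, read 7.68 and 7.33, 1.27-fold lower. CENPI and CENPM, of the same subcomplex, differed by 0.08 and 0.18. CENPP read 6.24 and 5.83, 1.33-fold lower, while CENPQ, of the same subcomplex, read 5.46 and 5.85, 1.31-fold higher. CENPU and CENPO, also of that subcomplex, differed by -0.13 and -0.05. Subunits of 1 kinetochore subcomplex therefore lay on both sides of 0.

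CENPA, the histone H3 variant that marks the centromere, read 7.01 and 6.87, a difference of -0.14, and CENPC, which binds its nucleosome, differed by -0.10. In the histone-fold group CENPW differed by -0.26, CENPT by -0.14 and CENPX by -0.0029. CENPL and CENPN, which bind the CENPA nucleosome as a pair, differed by 0.02 and 0.03. CENPV, whose product is found at the central spindle, differed by -0.20. After loess correction and after repeated quantile normalization CENPL was below 0 and CENPX above it, so these 2 have no settled sign.

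The promoter hexamer and the difference were set side by side. Of the 25 kept members with TTTGAA in a window, 23 had a negative difference and 12 were lower by at least 0.32, with a median of -0.26. Of the 29 kept members with a sequence but without it, 20 had a negative difference and 7 were lower by at least 0.32, with a median of -0.14. These 7 included CCNB1, CCNA2, KIF20A and KIF2C. The hexamer was present for 9 of 12 mitotic kinesins but for only 1 of 11 kept transport and ciliary kinesins with a sequence. The split by hexamer thus overlaps with the split by role, and their parts were not tested. Among the 763 kept genes outside the members that had the hexamer, 49.5% had a negative difference and the median was 0, against 45.4% and 0.02 for the 5067 without it. Lower by at least 0.32 were 68 of these 763 genes and 362 of these 5067. Over all kept genes, members included, the counts at that size were 80 of 788 with the hexamer and 369 of 5096 without it.

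Other genes of cell division and of microtubule motors were taken from 6 further lists. None of these lists held a kept gene 1.5-fold higher, against 3.95% of all kept genes. PTTG1, which encodes the separase inhibitor securin, read 4.46 and 5.13, a difference of 0.67, with a mean level a little below the floor, and is not counted here. It is named because of its values. All 16 kept genes of a kinetochore and spindle checkpoint list had a negative difference, against 46.8% of all kept genes. The median of the list was -0.29. Of the 16 genes, 7 were lower by at least 0.32 and 2 by at least 1.5-fold, against 8.28% and 1.12% of all kept genes. The list also held HJURP (-0.35), OIP5 (-0.50) and MIS18A (-0.21), which load CENPA onto the centromere, and the inner kinetochore gene ITGB3BP (-0.09). MAD2L1, a checkpoint protein that inhibits CDC20, read 8.28 and 7.68, 1.52-fold lower. TTK, the checkpoint kinase MPS1, read 8.40 and 7.81, 1.51-fold lower. SKA2, of the complex that tracks microtubule ends, had the highest difference of the list, -0.03.

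Of 13 kept spindle and cytokinesis genes, 11 had a negative difference, against 46.8% of all kept genes. The median of the list was -0.25. GTSE1, a microtubule-associated protein of G2 and S phase, read 6.46 and 5.85, 1.53-fold lower, and NUMA1, which focuses spindle poles, had the highest difference, 0.08. Of 12 kept condensin and cohesin genes, 10 had a negative difference, against the same 46.8%. Their median was -0.15, from -0.42 for SMC2, a condensin ATPase, to 0.14 for ESPL1, which encodes separase. The 15 subunits and partners of the anaphase-promoting complex had a median of -0.10, from -0.30 for ANAPC2 to 0.18 for CDC26. Of them 0 reached a difference of 0.32 in either direction, against 8.28% lower and 13.5% higher over all kept genes. In the list of G2 and M transcription and CDK control, 11 of 15 had a negative difference, against 46.8% of all kept genes. The median of this list was -0.13. RBBP4, a histone-binding subunit of the DREAM complex, had the lowest difference, -0.30, and LIN37, another DREAM subunit, the highest, 0.38.

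Genes of the dynein motor's partners and of kinesin light chains gave the one positive median of the 6 lists. Of 11 kept genes 8 had a positive difference, against 50.8% of all kept genes. The list had a median of 0.23, from -0.29 for DCTN1 to 0.53 for DCTN4, both subunits of dynactin. Under the alternatives that median ran from 0.07 to 0.23, and those of the other 5 lists stayed negative. Several listed genes had no named probe set here, among them all dynein heavy, intermediate and light chains, so the values describe dynactin, BICD adaptors and kinesin light chains.

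**Figure D5:**
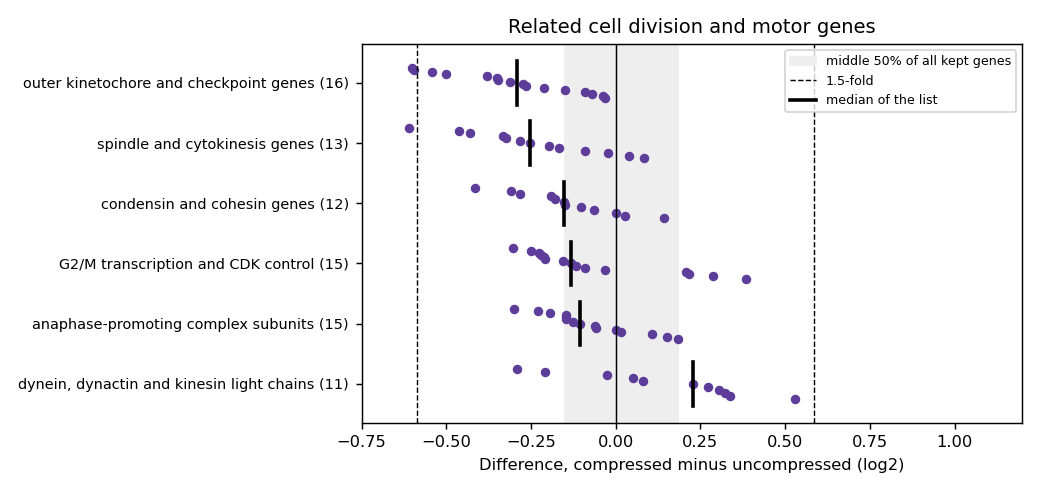
Each point is 1 kept gene of a related list, plotted by its difference in log2 units, with the number of kept genes in brackets, the list's median as a black bar and the middle 50% of all kept genes shaded. The list headed by the outer kinetochore lies wholly below 0 (median -0.29), and the dynactin and light chain list has its median at 0.23.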

How the data were processed

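The deposited table holds log2 levels, and the submitters' processing notes name RMA and the Transcriptome Analysis Console as the tools the authors used. This method corrects background, makes the array distributions equal and summarises each probe set, which removes a shift common to all genes and compresses differences near background. Versions and build were not given in the sources used here. No detection calls were used, so dim probe sets cannot be separated from background. The number of arrays, 1 per group, limits the precision.

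Of 53617 probe sets, 16098 carried 1 gene name in the platform annotation, and none carried several. All 16098 were matched to RefSeq gene records by gene identifier. A gene took its probe set with the highest mean of both arrays, and genes with a mean at or above the median, 4.79, were kept. No test was made. Genes were counted at log2 differences of 0.32, 0.58 (1.5-fold) and 1 (2-fold). The alternatives were no floor, a floor at the 75th percentile, the mean of probe sets, loess correction (span 0.3), median centring and repeated quantile normalization. The counts, loess, normalization and motif search were checked on simulated data.

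The members and lists were chosen with earlier results of these data known. Named are kept members that differ by at least 0.32, the lowest and highest of each role or list, list genes past 1.5-fold, and others to complete a complex or family. The matched level range and leaving out KIF4B were added as alternatives once the data had been seen. The software was Python 3.11.15, NumPy 2.4.6, pandas 2.3.3, statsmodels 0.14.6 and matplotlib 3.10.9.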

Additional observations from a re-analysis of the deposited data

How the results depend on the processing

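A summary was taken as unmoved where it kept its sign and stayed within 1.5 times or 0.05 of its value. The median of the transport and ciliary kinesins, 0.02, moved to -0.028 with no level floor and to -0.018 after repeated quantile normalization. The count of members at least 1.5-fold lower, 2, was 0 at a size of 2-fold. The count with a negative difference ran from 37 to 54 as the floor changed the number of members. Of 137 values of 24 single members under the alternatives, 134 stayed at or past a difference of 0.32 in the same direction. The other 3 were KIF1B with the mean of its probe sets (0.03) and after repeated quantile normalization (0.31), and KIF2B after loess correction (-0.31). The level filters repeat a member's main value or leave the member out, and the mean of probe sets can change only KIF1B among these members. The 4 higher members, CENPQ, KIF1B, KIF3C and KIF13A, did not reach the floor at the 75th percentile. At that floor 0 members were higher by at least 0.32. Median centring moves each value by 0.01. Most of the 137 values could therefore hardly change, and their agreement is no independent check. The median of all kept genes was between -0.03 and 0.01 under these settings. No paired analysis was possible because each group is 1 array.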

Other observations

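Members under the level floor are given as values. They were the transport and ciliary kinesins KIF1A, KIF5A, KIF5C, KIF6, KIF9, KIF17, KIF19, KIF21B, KIF26B and KIF27, together with KIF12, KIF25, the pseudogene CENPBD2P and KIF9-AS1. KIF26B, an atypical kinesin linked to Wnt signalling, read 4.21 on the uncompressed and 3.65 on the compressed array, the largest difference among them by the brightest probe set of each gene. KIF5A and KIF5C, the neuronal relatives of KIF5B, read 3.30 and 3.11, and 2.86 and 2.76. KIF17, a motor of cilia and dendrites, read 4.58 and 4.23. The 3 probe sets of KIF27 disagreed in direction, with differences of 0.40, -0.30 and -0.68.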
